A study of Homo sapiens with 4 samples.

Results

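The proteasome genes described here are the 48 rows, of 20289 in the deposited table, whose symbol begins with PSM, a letter from A to G and a number. The rule reads the symbol and no measured value, and 46 of the genes had counts. PSMA8 and PSMB11, core subunits known from testis and from thymic epithelium, had a count of 0 in all 4 libraries, which, with a floor of 3 counts, allows up to 0.133, 0.136, 0.121 and 0.166 CPM (counts scaled to library size). Values for the 4 libraries are listed throughout in the order DMSO, enzastaurin, paclitaxel, combination. The RNA came from SUM159-R, a paclitaxel-resistant derivative of the human triple-negative breast cancer line SUM159, labelled wild type and kept in 150 nM paclitaxel. Cells received the solvent DMSO, 2.5 µM of the protein kinase C inhibitor enzastaurin, 500 nM of the microtubule-stabilising drug paclitaxel, or both drugs, for 24 h. Each condition has 1 library, so no difference below can be set against the spread between cultures. The labels do not say whether the line is 1 clone or whether the maintenance paclitaxel was withdrawn before treatment.

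The 26S proteasome degrades proteins tagged with ubiquitin. Its 20S core is a barrel of 4 stacked rings, with alpha subunits (PSMA genes) outside and beta subunits (PSMB genes) inside, where the proteolytic sites lie. A 19S particle caps the barrel: its base of ATPases (PSMC genes) unfolds the substrate and its lid (PSMD genes) removes the ubiquitin chain. Activators (PSME genes) can bind in place of the 19S particle, and dedicated chaperones (PSMG genes and some PSMD genes) assist assembly without being part of the finished particle. In mammalian cells with impaired proteasome activity the transcription factor NRF1, encoded by NFE2L1, raises subunit genes together through antioxidant response elements.

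Library totals were 22576953, 21959564, 24699948 and 18236527 counts, so the combination was the shallowest. The mesenchymal genes VIM and CD44 had at least 66398 and 8830 counts in every library. Of the epithelial and hormone receptor genes PGR had 0 counts in all 4, ESR1 at most 3, EPCAM at most 5, CDH1 at most 14 and GATA3 at most 61. The leukocyte gene PTPRC had at most 16 counts, the endothelial genes VWF and PECAM1 at most 4 and 54, while the macrophage gene CD68, which many lines also express, had 278 to 469.

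Most proteasome genes were higher in the combination library than in the other libraries. This held for nearly all constitutive subunits of the core and the 19S particle. In combination over paclitaxel the counting interval was above 0 for 14 of 14 core genes and 16 of 17 PSM genes of the 19S particle. Over all 11734 genes tested it was above 0 for 3288. Among the 6986 genes whose mean reached 500 counts it was above 0 for 2699. In combination over DMSO the interval was above 0 for 14 core genes and 16 genes of the 19S particle. In combination over enzastaurin it was above 0 for 14 and 15. Among the same 6986 genes it was above 0 for 2830 over DMSO and 2854 over enzastaurin. Of the 46 genes with counts, 39 had their highest level in the combination and 4 their lowest. The same count over all genes is not given here, so these 2 numbers have no background beside them. The whole family took 0.561% of all counts in DMSO (exact binomial 95% interval 0.558 to 0.564), 0.548% in enzastaurin (0.545 to 0.551), 0.558% in paclitaxel (0.555 to 0.561) and 0.642% in the combination (0.638 to 0.646). The differences were small, with a median log2 ratio of 0.26 in combination over paclitaxel and none of 2-fold. All intervals here are 95% intervals for counting error only. Levels are relative to the other RNA of the same library, so more proteasome RNA per cell and less of the remaining RNA per cell cannot be told apart.

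Either drug alone left the family near its level in DMSO. The median log2 ratio over the 46 genes was -0.04 in enzastaurin over DMSO and -0.01 in paclitaxel over DMSO, beside -0.002 and -0.001 over all genes. A gene was called when its log2 ratio was at least 0.32 in size, its interval left out 0 and at least 20 counts stood behind its larger value. By that rule 0 proteasome genes were called higher and 0 lower in enzastaurin over DMSO, where 2.88% of 11683 genes were called higher and 3.31% lower. The counts were again 0 and 0 in paclitaxel over DMSO, where 3.4% of 11777 genes were called higher and 3.43% lower. Calls were rarer among the 6986 genes whose mean reached 500 counts, as it did for 43 of the 46. There 37 were called higher and 67 lower with enzastaurin, and 60 and 86 with paclitaxel. The widest value with either drug was that of the assembly chaperone gene PSMG4, at 0.28 (0.04 to 0.51) with enzastaurin and 0.18 (-0.05 to 0.41) with paclitaxel.

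In the 3 comparisons that involve the combination library, 13 to 20 of the 46 genes were called higher and 1 was called lower, each time PSMD11. The 3 share the combination library, so they are not separate observations. Combination over paclitaxel had 13 genes called higher, against a background of 9.0% of 11734 genes, and 1 called lower, against 20.3%. Among the 6986 genes whose mean reached 500 counts (abundant genes), as it did for 43 of the 46, the background was 9.05% higher and 15.4% lower. Combination over DMSO also had 13 called higher (background 13.2%) and 1 lower (22.6%), and combination over enzastaurin had 20 called higher (13.6%) and 1 lower (22.7%). Among the 6986 abundant genes 1015 were called higher and 1256 lower over DMSO, and 1024 and 1252 over enzastaurin. Intervals lay wholly above 0 for 37 of 46 genes in combination over paclitaxel and wholly below 0 for 2, PSMD11 and PSME3. Over the abundant genes those counts were 2699 and 2166, and their median log2 ratio was 0.03.

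The limit of 0.32 lies among the values of the subunits, so the counts called depend on where it is set. Scaled by library size alone, 8 genes were called higher in combination over paclitaxel in place of 13. No proteasome gene was called at 2-fold in any of the 5 comparisons. The background at 2-fold was 0.445% higher and 0.454% lower in enzastaurin over DMSO, and 0.815% and 0.433% in paclitaxel over DMSO. It was 1.03% and 5.61% in combination over DMSO, 0.58% and 4.21% over paclitaxel, and 0.945% and 5.52% over enzastaurin. In a model with an additive term for each drug, the only test the design allows, 0 proteasome genes passed edgeR's quasi-likelihood test at a Benjamini-Hochberg adjusted p of 0.05 for either drug. The smallest adjusted p was that of PSMC6 for both drugs, 0.823 for enzastaurin and 0.378 for paclitaxel. Under an unadjusted p of 0.05 it was 1 of 46 for each drug, the only one. Over all 12129 genes, 702 were under that limit for enzastaurin and 1345 for paclitaxel. Over all 12129 genes tested, 0.00824% passed for enzastaurin and 0.223% for paclitaxel, so this model made few calls of any kind. DESeq2 and limma also called 0 members, with 0 and 0 under an unadjusted p of 0.05 for enzastaurin and 0 and 1 for paclitaxel. Of 15870 genes tested by DESeq2, 213 were under that limit for enzastaurin and 529 for paclitaxel. Of 10710 tested by limma, it was 553 and 1067.

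**Figure D1:**
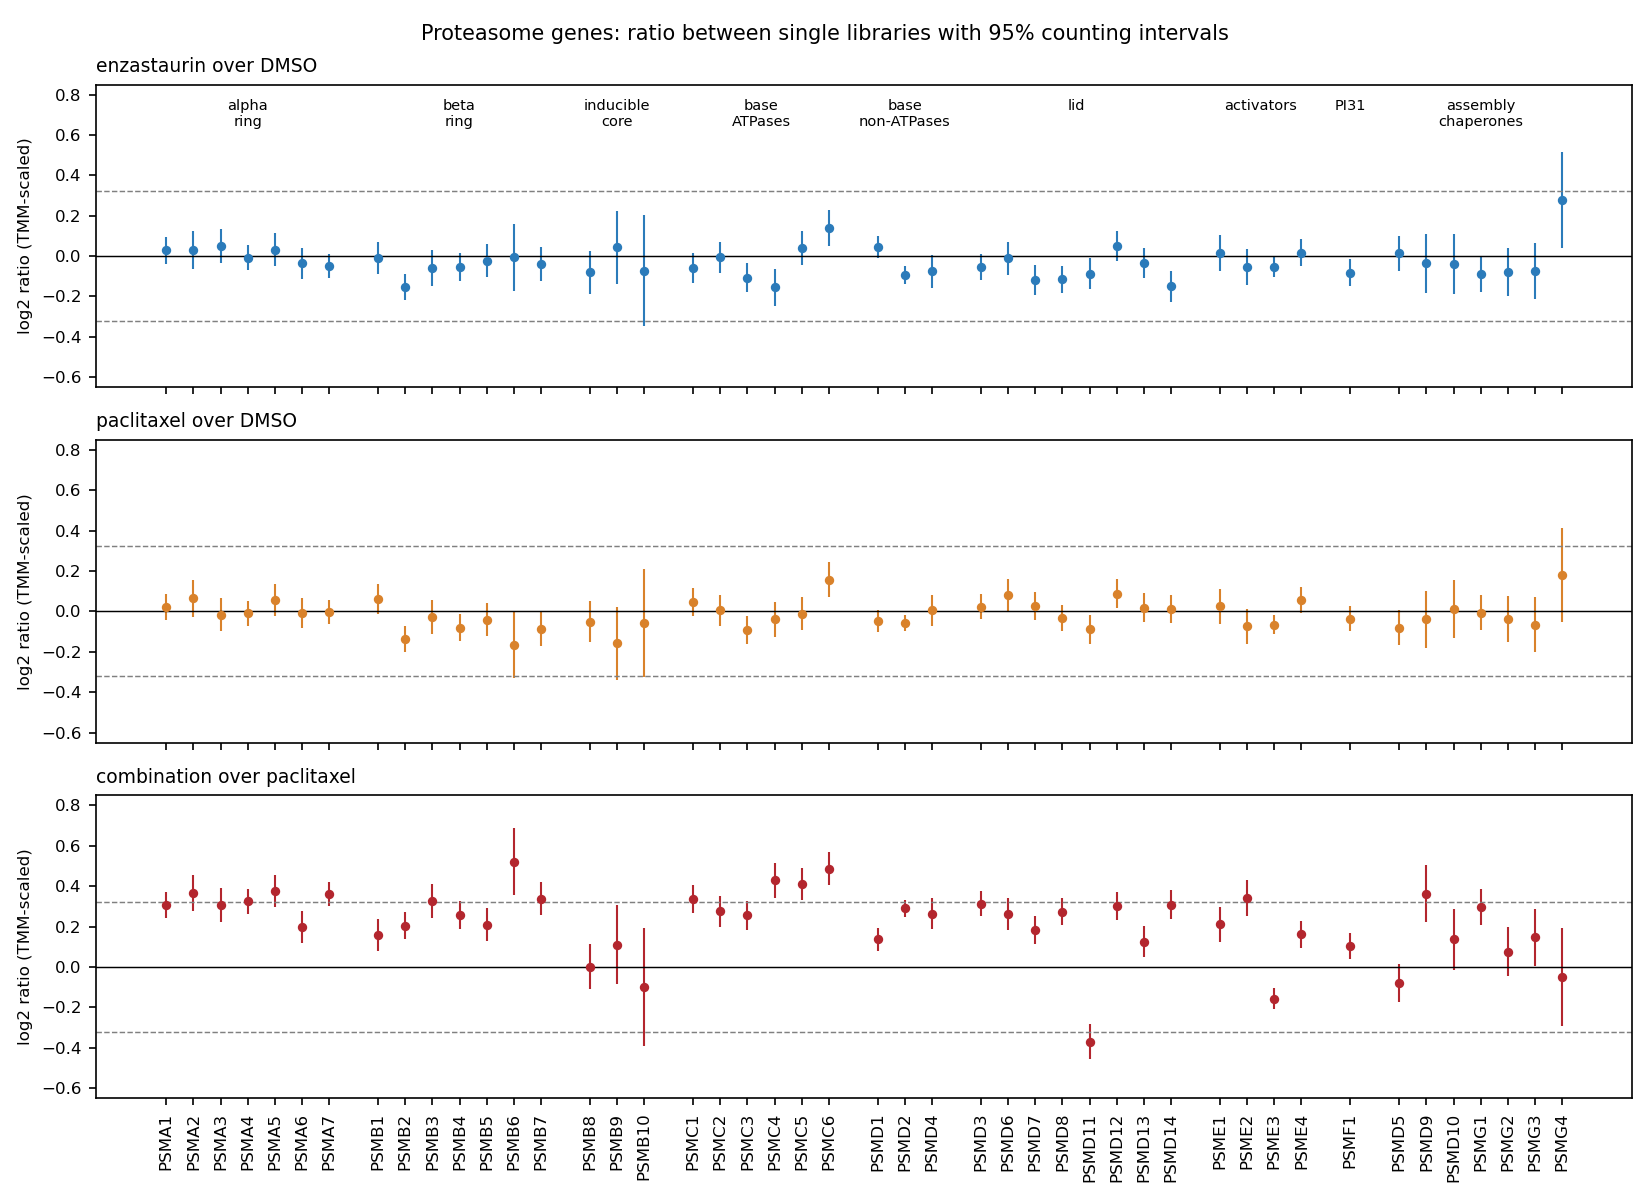
Log2 ratio of TMM-scaled counts (y axis) for each of the 46 proteasome genes with counts (x axis, grouped by subcomplex) in enzastaurin over DMSO, paclitaxel over DMSO and combination over paclitaxel; points are single libraries against single libraries, bars are 95% counting intervals and dashed lines mark the limit of 0.32. The single-drug points scatter around 0, while in combination over paclitaxel most lie between 0.1 and 0.5, with PSMD11 at -0.37 and the inducible core genes PSMB8, PSMB9 and PSMB10 near 0.

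The alpha ring forms the gate of the barrel and the platform on which caps dock. All 7 of its genes had intervals above 0 in combination over paclitaxel, with a median of 0.32, and 4 were called higher. With the trend in transcript length and GC content over all genes removed, the median was 0.24 and all 7 intervals stayed above 0. The genes called higher were then 3, PSMA2, PSMA4 and PSMA5, while PSMA7 was at 0.23 (0.17 to 0.28). With the trend removed, 6 of 7 intervals were above 0 over DMSO and 6 over enzastaurin. PSMA3 was then at 0.05 (-0.03 to 0.14) over DMSO and 0.05 (-0.03 to 0.14) over enzastaurin. PSMA5 was at 106, 108, 110 and 143 CPM, and without that removal its log2 ratio over paclitaxel was 0.38 (0.30 to 0.45). PSMA2 followed at 81.0, 82.8, 84.7 and 109 CPM, with 0.37 (0.28 to 0.46). For both genes the first 3 libraries lay close together and the combination stood above them. The smallest ratio was that of PSMA6, at 120.5, 117.5, 119.8 and 137.4 CPM and 0.20 (0.12 to 0.27), and the next smallest was PSMA1 at 0.31 (0.24 to 0.37). PSMA1, PSMA2 and PSMA6 are among the 7 proteasome genes whose deposited counts are not whole numbers; the others are PSMB10, PSMC1, PSMD1 and PSMG4.

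The beta ring carries the proteolytic sites: PSMB5 has the chymotrypsin-like, PSMB6 the caspase-like and PSMB7 the trypsin-like activity. All 7 constitutive beta genes had intervals above 0 in combination over paclitaxel, with a median of 0.26, and 3 were called higher. PSMB6 (hg38 chromosome 17, 4796144 to 4798503) was at 26.6, 26.5, 23.7 and 34.1 CPM, with the family's highest ratio in that comparison, 0.52 (0.36 to 0.69). The paclitaxel library was its lowest, and over DMSO the ratio was 0.36 (0.19 to 0.52). PSMB7 was at 104, 101, 98.0 and 124 CPM, with 0.34 (0.26 to 0.42) over paclitaxel. PSMB5, the main target of proteasome inhibitor drugs, was at 109.3, 107.5, 106.3 and 123.0 CPM, with 0.21 (0.13 to 0.29). The structural subunit genes PSMB1, at 0.16 (0.08 to 0.24), and PSMB2, at 0.20 (0.14 to 0.27), were lowest. With the trend in transcript length and GC content over all genes removed, 1 beta gene, PSMB6, was called higher in place of 3, and 6 of 7 intervals were above 0. PSMB7 was then at 0.20 (0.11 to 0.28), PSMB3 at 0.16 (0.07 to 0.24) and PSMB1 at 0.07 (-0.01 to 0.14).

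Interferon-inducible versions of the catalytic subunits make up the immunoproteasome: PSMB8 takes the place of PSMB5, PSMB9 that of PSMB6 and PSMB10 that of PSMB7. None of these genes was called in any of the 5 comparisons. PSMB8 was at 65.3, 61.7, 63.05 and 63.09 CPM. PSMB9 was at 22.1, 22.8, 19.8 and 21.4 CPM, and PSMB10 at 10.1, 9.65, 9.74 and 9.10 CPM. In combination over paclitaxel PSMB8 had a ratio of 0.00 (-0.11 to 0.11), PSMB9 one of 0.11 (-0.09 to 0.31) and PSMB10 one of -0.10 (-0.39 to 0.19). All 3 intervals include 0.

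Within a library the share of an inducible gene in the counts of its catalytic pair does not depend on how libraries are scaled. It was not corrected for transcript length and GC content. PSMB8 took 37.4% (exact binomial interval 35.9 to 38.9) of the PSMB8 and PSMB5 counts in DMSO, 36.5% (34.9 to 38.0) in enzastaurin, 37.2% (35.8 to 38.7) in paclitaxel and 33.9% (32.3 to 35.5) in the combination. PSMB9 took 45.4% (42.4 to 48.4), 46.3% (43.3 to 49.3), 45.5% (42.5 to 48.5) and 38.6% (35.6 to 41.7) of the counts with PSMB6. For PSMB10 and PSMB7 the shares were 8.88% (7.81 to 10.0), 8.69% (7.61 to 9.88), 9.04% (7.98 to 10.2) and 6.84% (5.86 to 7.93). Each pair had its lowest inducible share in the combination. Its interval there was apart from the other 3 only for PSMB9. For PSMB8 it was apart from DMSO and paclitaxel, and for PSMB10 from paclitaxel alone. With the trend in length and GC content removed, PSMB5 was at 0.11 (0.03 to 0.19) in combination over paclitaxel and PSMB8 at 0.01 (-0.10 to 0.12). PSMB6 was then at 0.36 (0.20 to 0.53) and PSMB9 at 0.13 (-0.06 to 0.33). For PSMB7 it was 0.20 (0.11 to 0.28) and for PSMB10 -0.18 (-0.47 to 0.11). Over enzastaurin PSMB5 was at 0.06 (-0.03 to 0.14), PSMB6 at 0.15 (-0.01 to 0.32) and PSMB7 at 0.10 (0.01 to 0.18). The inducible genes' intervals there all included 0. PSMB8 (chromosome 6, 32840717 to 32844703, minus strand) and PSMB9 (chromosome 6, 32844136 to 32859585, plus strand) overlap each other and PSMB9 overlaps TAP1 in GENCODE 29, and no source used here gives the strand use in counting, so reads of these neighbours may be mixed.

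**Figure D2:**
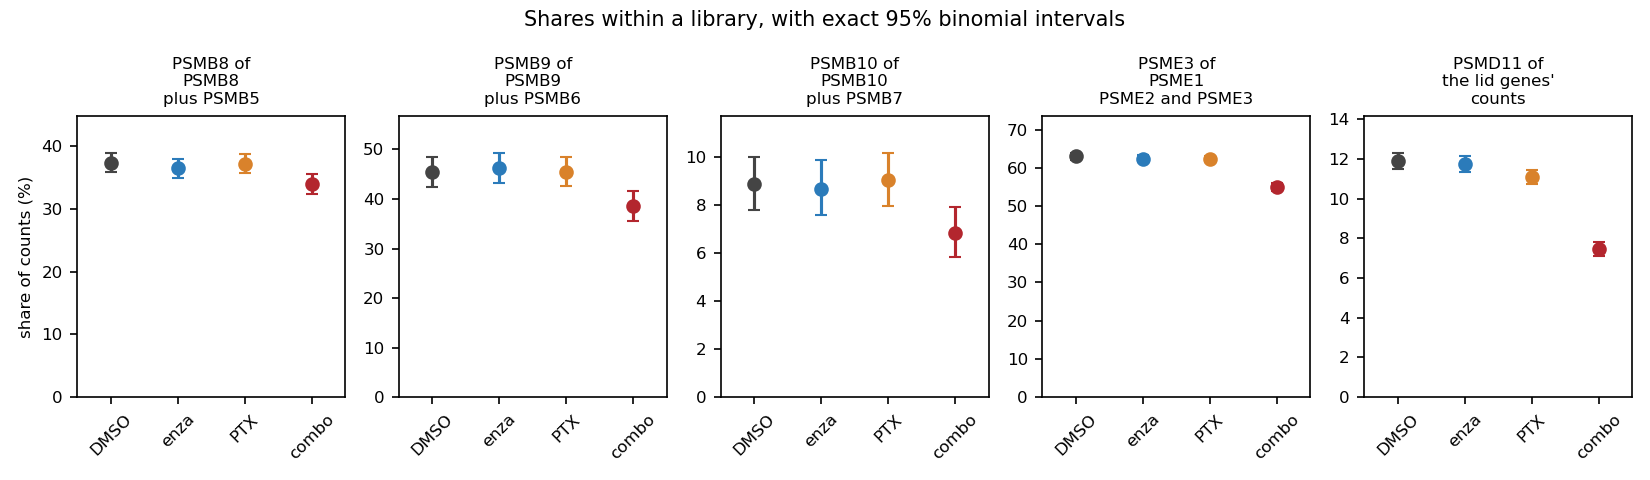
Share of counts in percent (y axis, from 0) taken within each library (x axis: DMSO, enzastaurin, paclitaxel, combination) by PSMB8, PSMB9 and PSMB10 in the sum with their constitutive partners, by PSME3 among PSME1, PSME2 and PSME3, and by PSMD11 among the 8 lid genes; bars are exact 95% binomial intervals. In all 5 panels the combination library has the lowest share, and the PSMD11 share is 11.1% in paclitaxel and 7.47% in the combination.

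The base ATPases, a ring of 6 different subunits that threads substrates into the core, had the highest median of any subcomplex in combination over paclitaxel, 0.37, with 4 called higher. PSMC6 (chromosome 14, 52707172 to 52728587, plus strand) was at 87.2, 95.9, 97.1 and 136 CPM. It was the only family member with intervals above 0 in all of enzastaurin over DMSO, at 0.14 (0.05 to 0.23), paclitaxel over DMSO, at 0.16 (0.07 to 0.24), and combination over paclitaxel, at 0.49 (0.40 to 0.57). After removal of the length and GC trend the first of these was 0.09 (-0.00 to 0.18), an interval that includes 0. Over DMSO the combination value of PSMC6 was the family's highest, 0.64 (0.56 to 0.73). PSMC4 was at 93.0, 83.6, 90.6 and 122 CPM, lowest in enzastaurin and highest in the combination, with 0.43 (0.34 to 0.51) over paclitaxel. PSMC3 and PSMC2 were the lowest of the ring, at 0.26 (0.19 to 0.33) and 0.28 (0.20 to 0.35). Of the base genes without ATPase function, PSMD2 was at 0.29 (0.25 to 0.33), PSMD4, a ubiquitin receptor, at 0.26 (0.19 to 0.34) and PSMD1 at 0.14 (0.08 to 0.19).

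In the lid, 7 genes were higher in the combination than in paclitaxel and PSMD11 was lower. PSMD11 (chromosome 17, 32444261 to 32483318, plus strand), known as RPN6 and as a contact between the lid and the core, was at 133.2, 125.5, 125.3 and 97.0 CPM, lowest in the combination. Relative to paclitaxel its log2 ratio there was -0.37 (-0.46 to -0.28), and -0.46 (-0.54 to -0.37) over DMSO. PSMD14, the deubiquitinating subunit, was at 137, 123, 138 and 171 CPM, with 0.31 (0.24 to 0.38). PSMD3 was at 174, 168, 177 and 220 CPM, with 0.31 (0.25 to 0.38), and PSMD13 was the lowest of the other genes at 0.13 (0.05 to 0.20). Of the 8 lid genes 0 were called higher over paclitaxel, 3 over DMSO and 6 over enzastaurin. After removal of the trend those counts were 2 (PSMD3 and PSMD12), 3 and 4.

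As a share of the lid genes' counts, PSMD11 made up 11.9% (11.5 to 12.3) in DMSO, 11.7% (11.3 to 12.2) in enzastaurin, 11.1% (10.72 to 11.45) in paclitaxel and 7.47% (7.13 to 7.81) in the combination, whose interval was apart from the rest. Its deposited FPKM values, which are per transcript length, were 45.6, 42.6, 43.95 and 33.7. Ratios in combination over paclitaxel followed transcript length across the 6981 abundant genes with a length (Spearman -0.274, a description across genes, which are not replicates). The longest PSMD11 transcript in GENCODE 29 has 4098 bases. With the trend in length and GC content over all genes removed, PSMD11 was at -0.27 (-0.36 to -0.19) in combination over paclitaxel and no longer past the limit of 0.32, and at -0.36 (-0.44 to -0.27) and past it over DMSO. The family's median in combination over paclitaxel was 0.22 with the trend removed. GENCODE 29 lists AC005899.8 and RF00019 on the other strand, overlapping PSMD11.

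**Figure D3:**
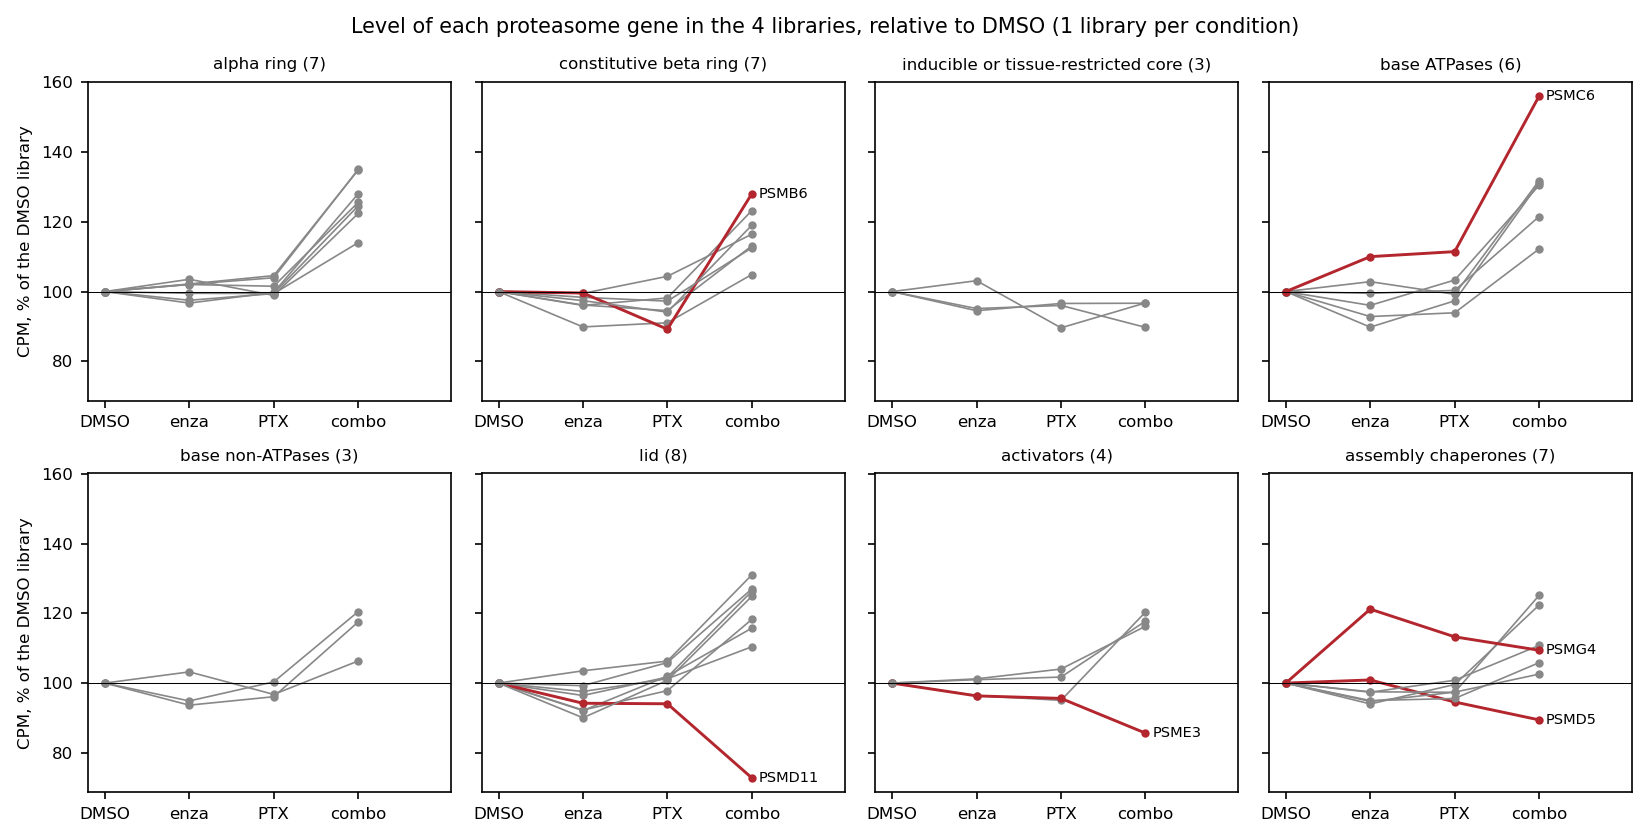
Level of each proteasome gene (y axis: TMM-scaled CPM as a percentage of its DMSO value) in the DMSO, enzastaurin (enza), paclitaxel (PTX) and combination (combo) libraries, 1 panel per subcomplex with its number of genes (PI31 is not drawn); each line joins the 4 single-library values of 1 gene and is no time course, and named genes are in red. In the lid, PSMD11 is at 97.0 CPM against 133 in DMSO while the other 7 genes are above their DMSO level in the combination.

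Among the activators 3 genes had intervals above 0 in combination over paclitaxel and PSME3 had one below. PSME1 and PSME2, which form the interferon-inducible PA28 ring, had ratios of 0.21 (0.12 to 0.30) and 0.34 (0.25 to 0.43). PSME2 was at 93.1, 89.8, 88.5 and 112 CPM, and was the activator gene called higher. PSME4, which encodes PA200, was at 0.16 (0.09 to 0.23). PSME3, which encodes the nuclear activator PA28-gamma, was at 319, 307, 305 and 273 CPM, lowest in the combination, with -0.16 (-0.21 to -0.11). PSME3 made up 63.0% (62.1 to 63.9) of the counts of PSME1, PSME2 and PSME3 in DMSO, 62.4% (61.5 to 63.3) in enzastaurin, 62.3% (61.5 to 63.2) in paclitaxel and 55.1% (54.0 to 56.1) in the combination, again apart from the rest. PSMF1, which encodes the proteasome regulator PI31, was at 172, 163, 168 and 181 CPM and 0.10 (0.04 to 0.17).

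The assembly chaperones had the lowest median of the groups outside the inducible core and PI31, 0.14 in combination over paclitaxel. PSMD9, a chaperone of the base, was at 35.2, 34.3, 34.3 and 44.1 CPM, with 0.36 (0.22 to 0.50), and was the chaperone gene called higher. PSMG1, a chaperone of the alpha ring, was at 89.9, 84.5, 89.5 and 110 CPM, with 0.30 (0.21 to 0.39). The intervals of PSMD10 and PSMG2 included 0. PSMD5, another chaperone of the base, was at 94.2, 95.1, 89.1 and 84.3 CPM, with -0.08 (-0.18 to 0.01), and PSMG4 at 12.2, 14.8, 13.8 and 13.4 CPM, with -0.05 (-0.29 to 0.19).

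For PSMD5 the deposited FPKM and counts differed. Counts gave a log2 ratio of 0.01 in enzastaurin over DMSO and FPKM gave 0.60, with FPKM values of 28.75 in DMSO, 43.6 in enzastaurin, 28.5 in paclitaxel and 26.2 in the combination. No other proteasome gene differed by more than 0.2 between the 2 measures in enzastaurin over DMSO.

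Levels per length can be compared between genes through FPKM. Although every constitutive core subunit is present in equal number in the finished particle, the 14 core genes spanned 6.37-fold in DMSO, from 32.3 FPKM for PSMB6 to 206 for PSMA7. The span was 6.19-fold in enzastaurin, 7.12-fold in paclitaxel and 6.36-fold in the combination, with the same lowest and highest gene each time. The 17 genes of the 19S particle spanned 3.25-fold in DMSO and 5.05-fold in the combination, where PSMD11, the lowest in all 4 libraries, was at 33.7 FPKM. Median FPKM of the core genes was 114 in DMSO, enzastaurin and paclitaxel and 132 in the combination. The inducible genes were below the core median in every library, with 54.9, 21.8 and 10.4 FPKM for PSMB8, PSMB9 and PSMB10 in DMSO.

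**Figure D4:**
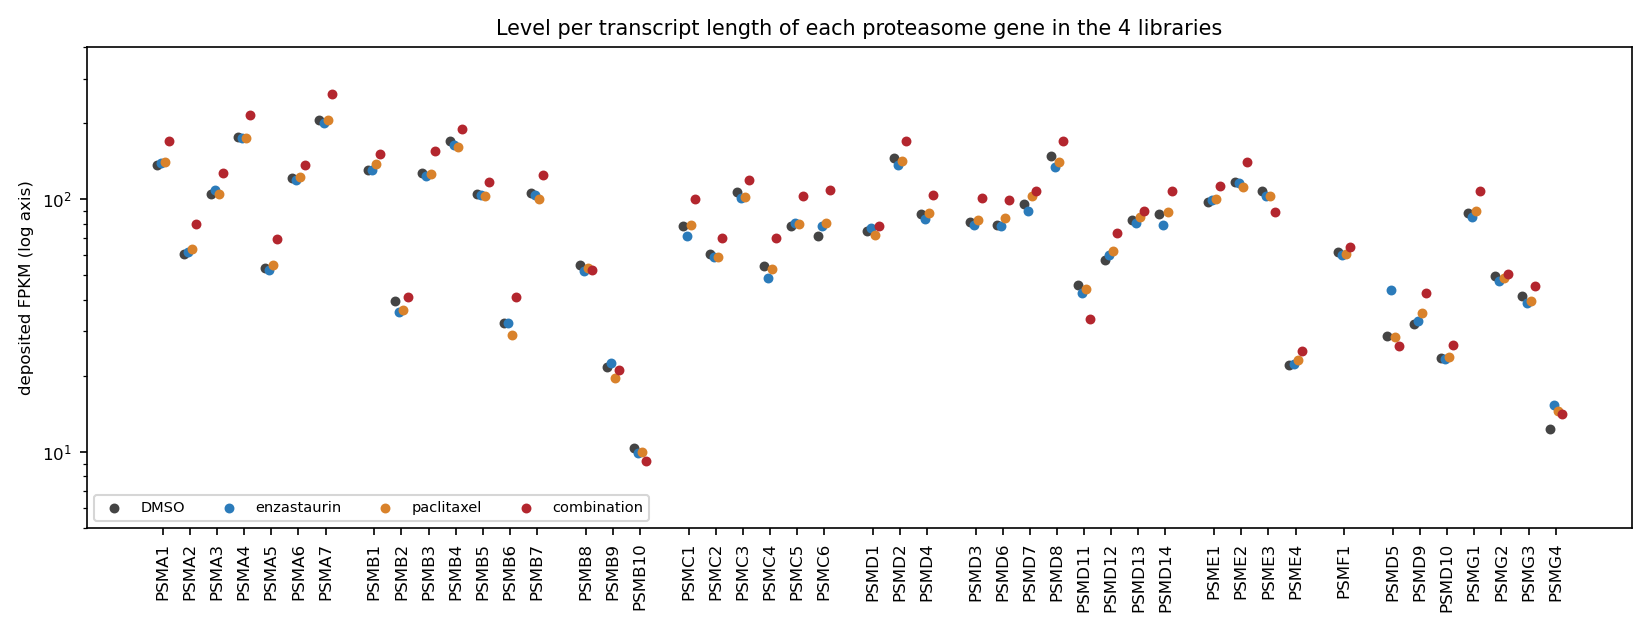
Deposited FPKM (y axis, log scale) of each of the 46 proteasome genes with counts (x axis, grouped by subcomplex) in the 4 libraries, 1 point per library. Core genes range from PSMB6 at 32.3 FPKM to PSMA7 at 206 FPKM in DMSO, the combination point is the highest for most constitutive genes, and the enzastaurin point of PSMD5, at 43.6 FPKM, stands above its other 3.

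With 4 libraries in a layout of 2 drugs, the departure from additivity is the log2 ratio of combination over paclitaxel minus that of enzastaurin over DMSO, a value with no test. Its median was 0.29 over the 46 genes and 0.03 over the abundant genes. The interval was above 0 for 37 proteasome genes, among them all 14 constitutive core genes and 16 of 17 genes of the 19S particle, and below 0 for 2, PSMD11, at -0.28 (-0.40 to -0.17), and PSME3, at -0.10 (-0.17 to -0.03). The background was 24.1% above 0 and 27.3% below 0 of 11813 genes, and 33.7% and 28.7% of the abundant genes. The highest departure was that of PSMC4, at 0.58 (0.46 to 0.71). After removal of the trend the median was 0.24, and 32 intervals were above 0 and 1 below, that of PSMD11. Not all constitutive core genes stayed above 0. PSMA3 was then at 0.12 (-0.00 to 0.24), PSMB1 at 0.10 (-0.01 to 0.21) and PSMB5 at 0.07 (-0.05 to 0.19). PSME3 was then at -0.06 (-0.13 to 0.01), PSMC4 at 0.45 (0.33 to 0.58), and PSMD14 was highest at 0.53 (0.43 to 0.63). Before that removal the inducible PSMB8, PSMB9 and PSMB10 lay between -0.03 and 0.08, all with intervals that include 0. After it PSMB8 was at 0.03 (-0.12 to 0.19), PSMB9 at 0.07 (-0.19 to 0.33) and PSMB10 at -0.22 (-0.61 to 0.18).

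Because NRF1 acts through antioxidant response elements, the promoters of the family were searched for the core TGACNNNGC of that element on both strands, in RefSeq windows of GRCh38.p14 from 250 bases before to 50 after the gene start. Windows were found for 40 of the 46 genes, 49 windows in all. The core lay in 15 of the 49 windows (30.6%), against 13.3% of all 35116 windows and 14.7% of the 8552 windows of abundant genes. The stricter form, with A as the next base, lay in 9 windows (18.4%), against 3.18% and 2.78%, and every such match is also a match of the shorter core. These 9 matches are shown with up to 10 bases on either side, 5′ to 3′ on the strand of the gene, the match in capitals, to let the sites be compared, with the position of the first match base relative to the gene start.

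PSMA4, chr15:78540650-78540679, plus strand, first match base at -126: gtgggcacgaTGACTCTGCAccgcctcctc
PSMB3, chr17:38752627-38752656, plus strand, first match base at -104: gcctccgtttTGACTTTGCAaccaaactac
PSMB9, chr6:32854033-32854062, plus strand, first match base at -149: agggcggggcTGCCTCGTCActtgtctcgg
PSMC5, chr17:63827653-63827682, plus strand, first match base at -58: cgaccggatcTGCTGTGTCAgcgccgccct
PSMD1, chr2:231056896-231056916, plus strand, first match base at 39: aggaggcgacTGACTGAGCAg
PSMD12, chr17:67366723-67366752, minus strand, first match base at -165: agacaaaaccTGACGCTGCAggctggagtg
PSMD3, chr17:39980829-39980856, plus strand, first match base at 32: ggtttgcagcTGCTCCGTCAtcgtgcgg
PSMD9, chr12:121888630-121888659, plus strand, first match base at -150: acgctactccTGCCGGGTCAccacaggcgc
PSME4, chr2:53971009-53971038, minus strand, first match base at -35: gcccggcggcTGCAGCGTCAccagcagagc

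In PSMA4, PSMB3, PSMD1 and PSMD12 the core reads on the strand of the gene and in the other 5 on the opposite strand. The genes with the stricter match had a median log2 ratio of 0.31 in combination over paclitaxel and the other matched genes one of 0.26, so both groups were higher in the combination. Among the 9 are PSMB9, at 0.11, and PSMD1, at 0.14, with ratios below the family median. The CCAAT box lay in 38.8% of the family's windows and 34.6% of all windows. The ETS site CCGGAAG lay in 28.6% of the family's windows and 10.3% of all, but in 18.9% of those of abundant genes.

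The windows of PSMC6 and PSMD11, the genes with the highest and the lowest ratio in combination over DMSO, are shown for comparison, with matches to any of these motifs in capitals. Neither holds the antioxidant response element core; PSMC6 holds 1 ETS site and PSMD11 none of the 3 motifs in this window, which says nothing of the factors themselves.

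PSMC6, chr14:52706950-52707249, plus strand: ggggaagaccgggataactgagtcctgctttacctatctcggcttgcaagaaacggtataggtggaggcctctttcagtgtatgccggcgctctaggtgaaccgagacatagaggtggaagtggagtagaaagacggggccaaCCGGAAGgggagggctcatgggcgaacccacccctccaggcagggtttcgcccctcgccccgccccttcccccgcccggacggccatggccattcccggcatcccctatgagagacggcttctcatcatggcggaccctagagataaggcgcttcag
PSMD11, chr17:32444260-32444559, plus strand: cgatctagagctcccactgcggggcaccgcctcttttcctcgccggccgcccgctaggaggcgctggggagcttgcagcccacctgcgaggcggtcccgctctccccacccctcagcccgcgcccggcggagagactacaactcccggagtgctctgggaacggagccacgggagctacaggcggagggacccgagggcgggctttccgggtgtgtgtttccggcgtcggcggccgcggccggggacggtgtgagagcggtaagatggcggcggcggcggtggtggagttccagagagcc

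Genes that work with the proteasome without a PSM symbol were followed as a list of 20. Their median was 0.19 in combination over paclitaxel, with 3 called higher and 1 lower. For this list and those below, the background in that comparison was 9.0% of 11734 genes called higher and 20.3% lower. TXNL1, a thioredoxin-like protein bound to the 19S particle, was at 96.1, 96.7, 98.5 and 137 CPM, with 0.48 (0.40 to 0.56). The ubiquitin shuttle gene UBQLN2 was at 52.70, 54.62, 46.75 and 18.15 CPM, with -1.37 (-1.55 to -1.19). POMP, the core assembly factor, was at 0.32 (0.22 to 0.41); it was named after its value was seen.

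The NRF1 activation list of 12 genes had a median of 0.10, with 1 called higher, the deglycosylase gene NGLY1 at 0.42 (0.30 to 0.54), and 1 lower, the ubiquitin ligase gene SYVN1 at -0.51 (-0.68 to -0.34). NFE2L1 itself, added after its value was seen, was at 144, 133, 146 and 138 CPM, with -0.08 (-0.15 to -0.01) in combination over paclitaxel. Its mRNA level gives no measure of the processing by which the NRF1 protein becomes active.

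The antigen processing and interferon list of 11 genes, with which the immunoproteasome is known to be induced, had a median of -0.07, with 1 called higher and 3 lower. TAPBP, which encodes the peptide-loading factor tapasin, was at 154, 161, 132 and 88.4 CPM, with -0.58 (-0.67 to -0.49). TAP1, named after its value was seen, was at 0.42 (0.33 to 0.52), above its neighbour PSMB9 at 0.11 (-0.09 to 0.31).

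The COP9 signalosome and eIF3 are complexes built on the same subunit plan as the lid, and served as a comparison. The 9 signalosome genes had a median of 0.22 in combination over paclitaxel, with 1 called higher, COPS5 at 0.41 (0.30 to 0.51), followed by COPS8 at 0.31 (0.23 to 0.39). The 13 eIF3 genes had a median of 0.15, with 1 called higher, EIF3J at 0.41 (0.34 to 0.47), and with EIF3B at 0.30 (0.27 to 0.33). None of either list was called lower. The background was 9.0% of all genes called higher and 20.3% lower. The lid genes' median of 0.27 lay above both, and the eIF3 genes had intervals above 0 in 12 of 13 cases; the lists were not tested against each other.

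**Figure D5:**
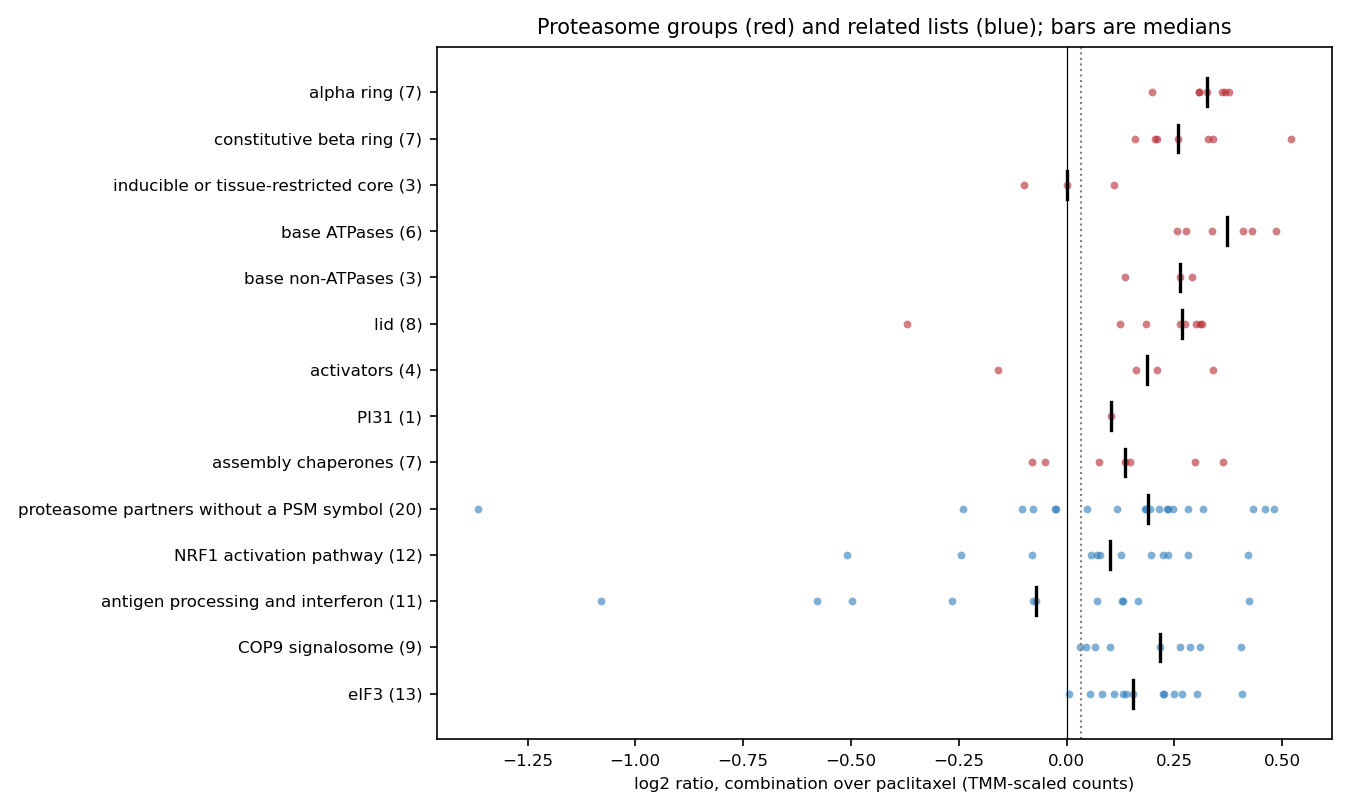
Log2 ratio in combination over paclitaxel (x axis, TMM-scaled counts) of each gene (points) in the proteasome subcomplexes (red) and in related lists (blue), with the number of genes in brackets; bars are medians, and the dotted line is the median of abundant genes, 0.03. The alpha ring and base ATPases have the highest medians, 0.32 and 0.37, the inducible core lies at 0, and UBQLN2 lies at -1.37.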

How the data were processed

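RNA of 4 samples, 1 library per condition, was made into cDNA by random priming and read on an Illumina NovaSeq6000 (labels' protocols); whether a sample is 1 culture or several pooled is not stated there. The authors deposited expected counts, not scaled for depth, and FPKM values, scaled for transcript length and depth; RSEM and hg38 are named in the submitters' processing notes, while versions, aligner, annotation release and strand use are not given in the sources used. Columns were matched to conditions by treatment name, with 0 unmatched. Counts were rounded, scaled by edgeR 4.0.16 TMM and given as CPM. Ratios carry 95% Clopper-Pearson conditional intervals, departures normal intervals from Poisson variances, and shares exact binomial ones; a floor is 3 counts. All cover counting error only, and without molecular identifiers reads are no independent molecules.

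The additive model used edgeR glmQLFTest (filterByExpr, 1 residual degree of freedom, Benjamini-Hochberg over 12129 genes); any interaction enters its residual. Both procedures were tested on simulated data. Lengths, GC content and coordinates came from GENCODE 29 (hg38; longest transcript, found for all 48 genes), and the trend was a spline with 6 knots. Promoters were RefSeq's. Alternatives used DESeq2 1.42.0 and limma 3.58.1 in R 4.3.3 and Python 3.11.15.

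The gene family, lists and call rule were chosen with earlier results of these data known, although the family's symbol rule uses no measured value. Per subcomplex the 2 highest and 2 lowest genes in combination over paclitaxel, all catalytic subunits and, per related list, the 2 largest ratios are named; others are marked as chosen later. Some genes that this rule selects, and 1 list, are not reported here.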

Additional observations from a re-analysis of the deposited data

Results flagged for a closer look

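For 10 proteasome genes a drug's difference lay beyond counting error on opposite sides without and with the other drug. With 1 library per condition this difference was not tested, and each value is a departure from additivity on the log2 scale. For enzastaurin the ratio was below 0 over DMSO and above 0 over paclitaxel in 8 genes: PSMC4 had a departure of 0.58, PSMD14 of 0.46, PSMD8 of 0.39, PSMD2 of 0.38, PSMC3 of 0.36, PSMB2 of 0.36, PSMD7 of 0.30 and PSMF1 of 0.19. PSMC4 went from -0.155 over DMSO to 0.43 over paclitaxel, but with the length and GC trend removed its value over DMSO was -0.08 (-0.17 to 0.01), an interval that includes 0. For paclitaxel the ratio was below 0 over DMSO and above 0 over enzastaurin in 5 genes: PSMD2 (0.38), PSMB7 (0.38), PSMC3 (0.36), PSMB2 (0.36) and PSMB4 (0.31). PSMB2, PSMC3 and PSMD2 are in both sets, which use the same 4 libraries. The same pattern, lower alone and higher with the other drug, was met by 17.4% of the 46 genes for enzastaurin, against 7.48% of 6981 abundant genes, and by 10.9% for paclitaxel, against 4.05%. Ratios followed GC content over the abundant genes, with a Spearman coefficient of -0.523 in enzastaurin over DMSO and -0.386 in paclitaxel over DMSO. With the trend removed, 5 of the 8 genes for enzastaurin (PSMB2, PSMD14, PSMD2, PSMD7 and PSMF1) and 2 of the 5 for paclitaxel (PSMB2 and PSMB4) still met it, while PSMA6 for enzastaurin and PSMD1 and PSMD14 for paclitaxel met it only then. The shares were then 13.0% of the 46 genes for enzastaurin, against 5.51% of the abundant genes. For paclitaxel they were 8.7%, against 3.58%. Applying the correction to these signs, to the subcomplexes and to the departure was decided after seeing the data.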

How the results depend on the processing

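The median log2 ratio of the 46 genes kept its sign in all 5 comparisons under DESeq2 size factors, library size alone, other count minimums, deposited FPKM values (pseudocount 1 or 0.1) and removal of the length and GC trend; in combination over paclitaxel it lay between 0.22 and 0.28. A fold limit of 1.5 left 1 gene called higher in combination over DMSO, 0 over paclitaxel and 0 over enzastaurin, and 0 lower in each; a limit of 2 left 0 in all of these. Library size alone gave 8 called higher in combination over paclitaxel. With the trend removed, 0 were called lower over paclitaxel and 0 over enzastaurin. FPKM gave 1 called higher in enzastaurin over DMSO and 2 called lower in combination over enzastaurin, with either pseudocount. Leaving out the 7 genes whose counts are not whole, and other scalings of the departure, were added after seeing the data and moved no count by over 1.5 times. No member passed the additive model under any alternative. No paired analysis was possible because the conditions have 1 library each, and for the same reason no library could be left out.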
